A study of Mus musculus with 4 samples.

Results

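The histone genes described here were taken from the gene annotation of the array by symbol. They are the genes named H1f, H2ac, H2bc, H3c or H4c with a number, the newer names of the linker histone, H2A, H2B, H3 and H4 genes, that had a probe set assigned to 1 gene only. Where a gene had more than 1 such probe set, the brightest on average was kept. The rule found 29 of the 22180 genes measured, with 8 in class H1, 6 in H2A, 8 in H2B, 0 in H3 and 7 in H4. Of these, 26 lie in the histone clusters on mouse chromosomes 3 and 13. The other 3, H1f7, H1f8 and H1f10, lie on chromosomes 15 and 6 and are not replication-dependent cluster genes, although their symbols match.

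The series compared LSK cells, the bone marrow fraction that is negative for lineage markers and positive for Sca1 and c-Kit and that holds the blood stem cells and multipotent progenitors. The WT group was 2 samples from wild-type mice and the KO group 2 samples from SRC-3 knockout mice, all male and 8 weeks old, with 1 Affymetrix array per sample. SRC-3 is a transcriptional coactivator encoded by Ncoa3. The sample titles call the 2 arrays of a group biological replicates. The labels give no strain, do not describe the knockout allele and give no number of mice behind a sample, so p-values measure only how these samples scatter.

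Replication-dependent histone genes supply the H2A, H2B, H3 and H4 of the nucleosome core, and the H1 that binds the linker DNA, when DNA is copied in S phase. Their mRNAs have no introns and end in a conserved stem-loop instead of a poly(A) tail. The stem-loop binding protein Slbp escorts them, and the nuclear protein Npat switches on their transcription at the start of S phase. Some cluster genes, among them H2bc21, are also known to give polyadenylated transcripts. The labels describe biotin-labelled cRNA made from total RNA but do not say whether priming was by oligo(dT) or by random primers. The part of tail length in the signals below was therefore not tested.

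Ncoa3 was lower in KO, at 7.76 and 7.05 on the WT arrays and 5.35 and 5.09 on the KO arrays (log2), a difference of -2.19 ± 0.27 (SE, limma adjusted p = 0.038). Among the LSK and progenitor markers, Kit read 10.3 and 9.65 in WT and 9.43 and 9.34 in KO, and Ly6a, the Sca1 gene, had no probe set of its own and was not analysed here. Of 7 such markers measured, 6 had both KO arrays below both WT arrays. Over all genes 22.9% lay below in this way and 25.1% above. Cd34 was at -0.68 ± 0.13, Mecom at -0.87 ± 0.21 and Flt3 at -1.21 ± 0.27 (SE). Markers of mature cells were also measured. The 3 T cell and 2 B cell markers averaged 2.97 to 3.71 on every array, below the median gene at 4.32. Among them Cd4 read 4.60 and 4.66 in WT and 4.51 and 4.41 in KO, above that median. Of 4 erythroblast markers, Rhag rose by 3.67 ± 0.24 and Ermap by 3.97 ± 0.29 on the log2 scale (SE, both limma adjusted p = 0.0090) from WT values below the median gene, so the size of the rise is uncertain. Slc4a1 was at -0.96 ± 0.24 (SE), and the mean of the list was 3.61 and 3.63 in WT and 5.35 and 5.56 in KO. Of 5 granulocyte and macrophage markers, Camp, Ngp and S100a8 had both KO arrays above both WT arrays and Itgam both below. The mean of that list was 4.996 and 5.19 in WT and 5.69 and 5.76 in KO. Whether these cells had a part in the histone signals was not tested.

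Most histone genes had higher signals in KO, by amounts that did not pass the test over all genes. The mean was higher in KO for 25 of 29 members, against 49.7% of all genes. Both KO arrays lay above both WT arrays for 17 members, against 25.1% of all genes, and below both for 1 member, against 22.9%. In limma 0 members passed an adjusted p of 0.05 in either direction, and the share of all genes that did was 0.397% for higher and 0.113% for lower. At an unadjusted p under 0.05, 12 members were higher, or 41.4%, against 10.5% of all genes, and 1 was lower, against 6.93%. The median difference over the members was 0.37 on the log2 scale, and over all genes it was -0.0010. The members share arrays and, in part, sequence, so they are not independent of each other.

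These counts moved with single arrays. Without WT replicate 1, 5 members passed the adjusted threshold as higher, when 6.5% of all genes did, and 7 were higher at an unadjusted p under 0.05, when 16.0% of all genes were. Without WT replicate 2, 7 passed, when 7.8% of all genes did, and 13 were higher at the unadjusted p, against 14% of all genes. Without KO replicate 1 the counts were 0 and 4, against 3.77% of all genes at the unadjusted p, and without KO replicate 2 they were 0 and 8, against 4.39%. Without either KO array 0 genes of the whole table passed the adjusted threshold. The mean over the 29 members was 5.35 on WT replicate 1 and 5.61 on WT replicate 2, and 5.93 and 5.82 on the KO arrays. WT replicate 2 read higher than WT replicate 1 for 24 members, or 82.8%, against 52.8% of all genes.

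**Figure D1:**
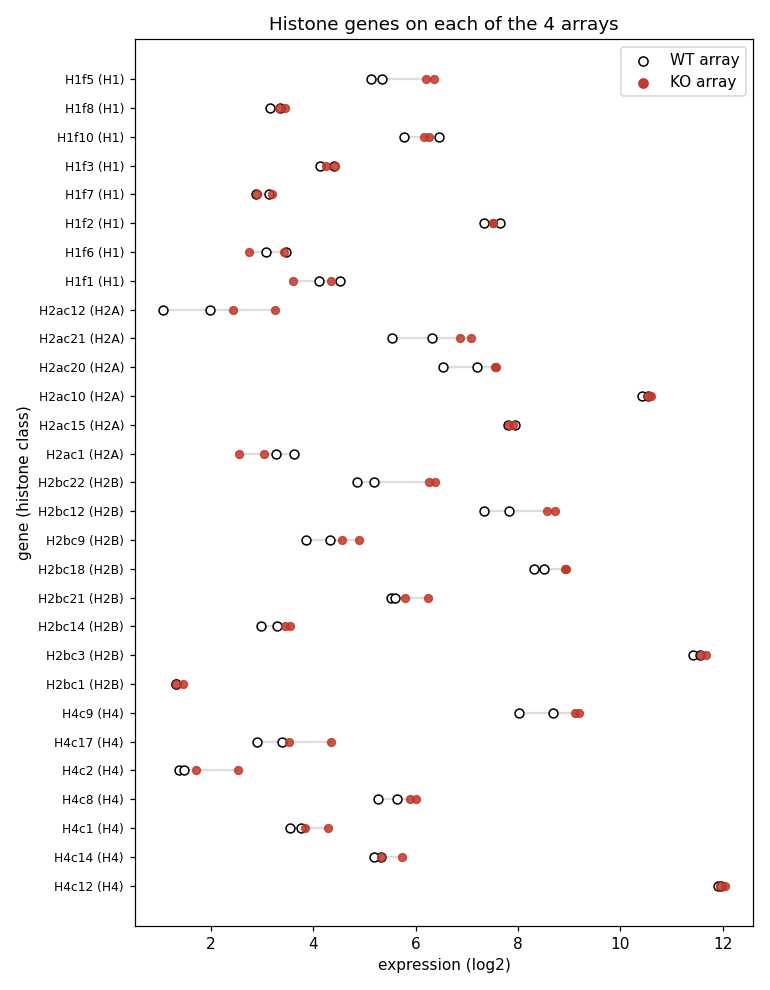
Log2 expression of the 29 histone genes on each array, grouped by class and, within a class, ordered by the difference between the KO and WT means. Open circles are the 2 WT arrays and red circles the 2 KO arrays. For 17 genes, most of them H2A, H2B and H4 genes, both red circles lie to the right of both open ones, and for H2ac1 both lie to the left.

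Among the H1 genes, which encode the linker histones, H1f5 stood apart from the others in size. H1f5 read 5.12 and 5.35 in WT and 6.36 and 6.21 in KO, 1.05 ± 0.18 higher in KO (SE, limma adjusted p = 0.078). The KO pair lay well above both WT arrays, and the gap between genotypes was larger than that between arrays of either group. H1f2, the H1 gene with the strongest signal, read 7.65 and 7.34 in WT and 7.50 and 7.51 in KO, so the groups overlapped. Its difference was 0.010, with a 95% confidence interval from -0.43 to 0.45. H1f1 was at 4.11 and 4.52 in WT and 4.35 and 3.60 in KO, the lowest difference of the class at -0.34 ± 0.29 (SE), again with overlapping arrays. H1f3 differed by 0.060 and overlapped too. Of the 8 H1 genes, H1f1, H1f2, H1f3, H1f6, H1f7 and H1f10 changed sign when 1 array or another was left out. H1f6, the testis linker histone, read between 2.74 and 3.47 on all arrays. The genes outside the clusters differed by 0.049 for H1f7, 0.091 for H1f10 and 0.14 for H1f8, the oocyte linker histone, and none of the 3 separated the groups. Differences between classes were not tested. The median of the H1 class was 0.055 over 8 genes and 0.0098 over the 5 inside the clusters. It was -0.016 without WT replicate 1 and 0.11 without WT replicate 2.

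The H2A genes fell into members with clear gaps and members with nearly equal signals. H2ac21 read 5.55 and 6.32 in WT and 7.09 and 6.87 in KO, a difference of 1.04 ± 0.28 (SE, limma adjusted p = 0.15). A second probe set of that gene, with a weaker signal, read 2.78 and 2.92 in WT and 2.85 and 3.17 in KO, a difference of 0.16 ± 0.18 (SE), so the 2 probe sets disagreed in size. H2ac20, its neighbour on chromosome 3, read 6.53 and 7.19 in WT and 7.58 and 7.56 in KO, a difference of 0.71 ± 0.25 (SE). For this pair of genes the WT arrays were farther apart than the KO arrays, and the KO arrays lay above both. A far brighter probe set lists H2ac20 together with H2ac18 and H2ac19. That set read 12.82 and 12.69 in WT and 12.83 and 12.81 in KO. The difference there was 0.058 ± 0.095 (SE), with overlapping arrays. H2ac12 read 1.06 and 1.99 in WT and 3.25 and 2.43 in KO (1.32 ± 0.37, SE, adjusted p = 0.16). Its WT values are among the lowest of the array, so the size of that difference is uncertain. H2ac10 and H2ac15 stood at high signals and hardly differed. H2ac10 read 10.4 and 10.5 in WT and 10.5 and 10.6 in KO, and H2ac15 differed by -0.012, with a 95% confidence interval from -0.40 to 0.38. H2ac1, a histone gene of the male germ line, was the member with both KO arrays below both WT arrays, at 3.26 and 3.63 in WT and 2.55 and 3.04 in KO (-0.65 ± 0.23, SE, adjusted p = 0.22). The H2A median was 0.40 over 6 genes, 0.21 without WT replicate 1, and 0.16 when both H2ac21 probe sets were counted.

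All 8 H2B genes had a higher mean in KO, and in 7 the KO arrays lay above the WT arrays, against 25.1% of all genes. H2bc22 had the smallest adjusted p of all members. It read 4.86 and 5.18 in WT and 6.26 and 6.38 in KO, a 2.46-fold difference (1.30 ± 0.19, SE, limma adjusted p = 0.059). Over the alternatives its adjusted p ran from 0.012 without WT replicate 2 to 0.73 without KO replicate 1. It was 0.045 with quantile normalization, 0.024 with each array centred on its median, 0.033 among the brighter genes and 0.028 without WT replicate 1, and it stayed above the threshold in the other alternatives, at 0.55 without KO replicate 2. H2bc12 read 7.33 and 7.82 in WT and 8.57 and 8.73 in KO, or 1.08 ± 0.21 higher (SE, adjusted p = 0.089). For both genes the space between the genotypes was wider than the spread of either group. H2bc18 read 8.31 and 8.50 in WT and a near-equal 8.93 and 8.92 in KO, a difference of 0.52 ± 0.16 (SE). H2bc9 read 3.86 and 4.33 in WT and 4.57 and 4.89 in KO, a difference of 0.64 ± 0.23 (SE). H2bc21, whose gene also gives polyadenylated mRNA, differed by 0.46 ± 0.21 and H2bc14 by 0.37 ± 0.18 (SE), both without overlap. H2bc3, with the strongest signal of the class, read 11.4 and 11.5 in WT and 11.6 and 11.7 in KO, a difference of 0.15 ± 0.11 (SE). H2bc1, the testis H2B gene, read 1.33 on both WT arrays and on 1 KO array, near the lowest values of the table, and gives no usable difference. The median of the class was 0.49, and ran from 0.41 to 0.56 as single arrays were omitted.

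The H4 genes of the clusters encode a protein that forms the nucleosome core with H3. All 7 had a higher mean in KO, and in 5 both KO arrays lay above both WT arrays, against 25.1% of all genes. H4c9 read 8.01 and 8.68 in WT and 9.11 and 9.19 in KO, a difference of 0.80 ± 0.24 (SE, limma adjusted p = 0.17). H4c8 read 5.26 and 5.63 in WT and 5.89 and 6.01 in KO, a difference of 0.50 ± 0.20 (SE). In both genes WT replicate 1 was the lowest array and the KO arrays lay close together. H4c17 and H4c2 were dim, so the size of a difference is uncertain, and they scattered more within the KO group than within WT. H4c17 read 2.91 and 3.38 in WT and 4.36 and 3.53 in KO, and H4c2 read 1.38 and 1.49 in WT and 2.54 and 1.71 in KO. H4c1 differed by 0.42 ± 0.21 (SE) without overlap and H4c14 by 0.27 ± 0.21 (SE) with overlap. H4c12 carried the strongest signal of all members, 11.91 and 11.97 in WT and 12.05 and 11.94 in KO, and its difference was 0.053 with a 95% confidence interval from -0.20 to 0.31. The H4 median was 0.50. It was 0.27 without KO replicate 1 and 0.34 without WT replicate 1.

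Histone H3 could be followed only through probe sets that the annotation assigns to several genes, because no H3 gene had a probe set of its own. There were 37 probe sets that listed 3 to 13 histone genes each, and 3 pairs of them held equal values, which left 34 distinct ones. They listed 53 genes, 39 of which had no probe set of their own. A signal of this kind may come from any of the listed genes, and their coding sequences were not compared here. In a fit over all 25335 annotated probe sets, 0 of the 34 passed an adjusted p of 0.05, against 0.399% of all probe sets for higher. At an unadjusted p under 0.05, 16 were higher, against 10.7% of all probe sets, and 0 were lower. Both KO arrays lay above both WT arrays for 25, against 25.6%, and below both for 0. Without KO replicate 1 the count at the unadjusted p was 9, against 3.99% of all probe sets, and without KO replicate 2 it was 8, against 4.69%. Without WT replicate 2, 12 of the 34 passed the adjusted threshold, when 8.24% of all probe sets did, and without WT replicate 1, 4 did, against 6.53%.

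Of the 12 H3 probe sets, 11 had a higher mean in KO and the median difference was 0.53. In 9 both KO arrays lay above both WT arrays, against 25.6% of all probe sets. The clearest of them, listing H3c15 and 7 other H3 genes, read 4.97 and 4.75 in WT and 5.96 and 5.73 in KO, a difference of 0.98 ± 0.19 (SE, limma adjusted p = 0.084). A brighter one listing the same 8 genes read 7.87 and 7.69 in WT and 7.89 and 7.89 in KO, a difference of 0.11 ± 0.17 (SE), so probe sets of equal annotation did not give equal differences. The 4 probe sets of H3c1, H3c8, H3c10 and H3c11, the genes for the H3.1 protein, differed by 0.29 to 0.71, and in all 4 the groups did not overlap. The 8 probe sets of the other H3 genes differed by -0.20 to 0.98, and 5 of them separated the groups with the KO arrays higher. For H2A, 9 distinct probe sets had a median of 0.83 and 7 separated the groups. An example is the probe set headed by H2ac8, which read 4.43 and 4.45 in WT and 5.61 and 5.31 in KO, a difference of 1.02 ± 0.19 (SE, adjusted p = 0.079). For H4, 5 had a median of 0.85 and 4 separated the groups. For H2B, 7 had a median of 0.14, below the 0.49 of the single H2B genes. This difference between the 2 kinds of H2B probe set was not tested.

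**Figure D2:**
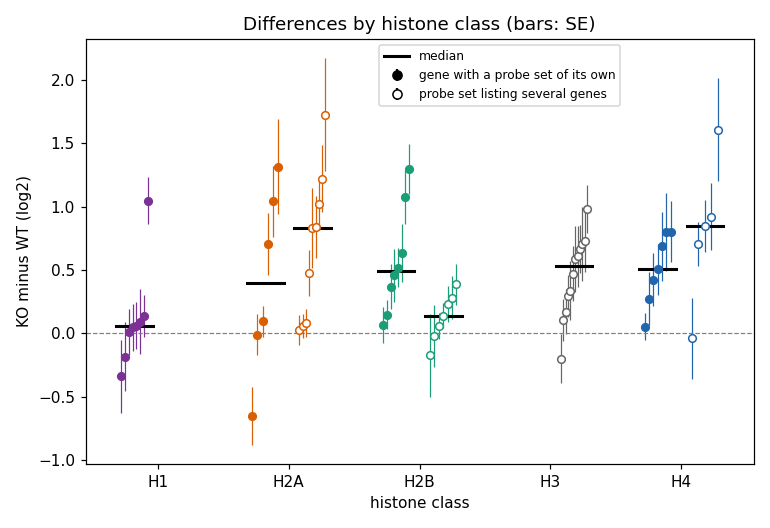
KO minus WT difference (log2) by histone class, with bars for the standard error and a black line for the median of each kind of probe set. Filled points are the 29 genes with a probe set of their own and open points the distinct probe sets that list several genes of 1 class. Most H2A, H2B, H3 and H4 points lie above 0, the H1 genes other than H1f5 lie around it, and 1 probe set that lists H1f4 with H2B genes is not drawn.

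The brightest histone probe sets differed little. The 3 members with a mean of 10 or more, H2ac10, H2bc3 and H4c12, differed by 0.053 to 0.15. The 6 distinct probe sets of several genes at that brightness differed by 0.026 to 0.23. Below 10, the members ran from -0.65 to 1.32 with a median of 0.44, and the several-gene probe sets from -0.20 to 1.73 with a median of 0.60. The members in between did not follow 1 trend. At a mean of 6 to 8, 5 members had a median difference of 0.091, near the 0.084 of all genes there, and at 8 to 10 the 3 members H2bc12, H2bc18 and H4c9 had a median of 0.80, against 0.18. The share of all genes higher at an unadjusted p under 0.05 itself rose with signal, from 3.28% below 4 through 10.2% and 19.3% to 28.2% at 8 to 10. In those 4 bands 3 of 10, 4 of 8, 2 of 5 and 3 of 3 members were higher by that measure. The highest value on any array was 12.8. On WT replicate 1 and on both KO arrays, the highest value was that of the probe set listing H2ac18, H2ac19 and H2ac20. Whether a difference can be read in full at the upper end of the signals was not tested. Among all 334 genes at 10 or more, the median difference was 0.13 and the middle 50% ran from -0.068 to 0.38, a range that holds all of these histone values. Across the 29 members the correlation of mean signal with difference was r = 0.017 (Spearman's rho = 0.11), as a description over genes that share arrays and sequence. Signals of different probe sets are not on a common scale, so they give no order of abundance between histone genes.

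**Figure D3:**
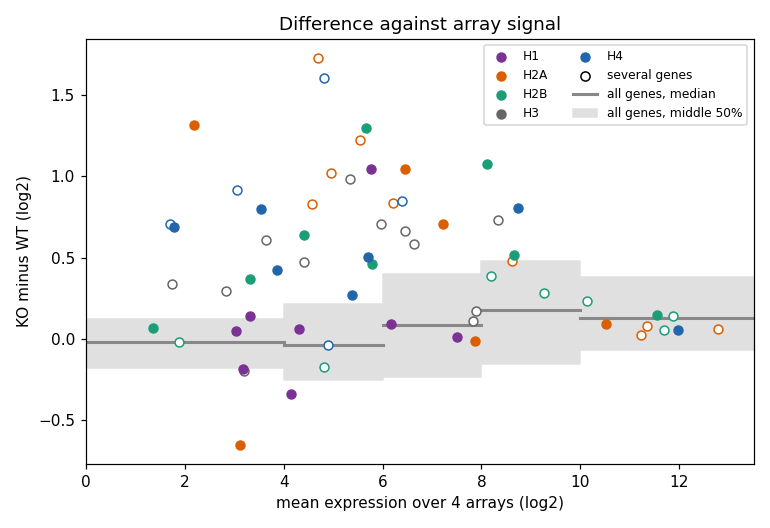
KO minus WT difference (log2) against mean expression over the 4 arrays (log2). Filled points are histone genes, open points are probe sets listing several histone genes, grey steps mark the median of all genes in 5 bands of signal, and grey boxes the middle 50%. Many histone points under a signal of 10 lie above the grey boxes, and those at 10 and above lie within the box.

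The promoters of the histone genes carry short elements that bind general factors and, in the H2A and H2B genes, the octamer factor. RefSeq promoter windows of assembly GRCm38.p6 matched 27 of the 29 members, and the 250 bases before each start were searched on both strands. The CCAAT box (CCAAT) was present in all 18 cluster genes matched in the H1, H2A and H2B classes and in 1 of 6 H4 genes, against 33.9% of 32851 promoters. The octamer (ATTTGCAT) was present in 5 of 7 H2B and 3 of 6 H2A genes and in none of the 11 H1 and H4 cluster genes, against 1.60% of promoters. A TATA box (TATAAA) was present in 13 of the 24 cluster genes, against 12.4%. The exact letters searched for the H1 box (AAACACAAA) were present in 1 of the 5 H1 genes, H1f6, and in H2bc14, against 0.642%. Near matches were not counted, so a gene without a match may still hold one. The H1f5 stretch below holds AAACACAA followed by T, which is left unmarked. A match says only that these letters are present. Paired genes can share matches: the 3 CCAAT boxes and 1 octamer between H2ac12 and H2bc12 count for both. The gene counts are therefore not counts of separate promoters.

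Neighbouring H2A and H2B genes are often transcribed away from a shared promoter. H2ac12, with its dim signal, and H2bc12 are such a pair on chromosome 13, with 177 bases between their starts. That stretch is shown first, on the H2bc12 strand. It is followed by the 120 bases before the starts of members that carry the results: H2bc22, with the smallest adjusted p, H1f5, the H1 gene that stood apart, H2bc18 and H4c9, whose arrays separated at high signals, and H4c12, whose arrays overlapped. All run 5′ to 3′ on the strand of the gene named, and capitals mark the CCAAT box, TATA box, octamer or H1 box on either strand, none of which overlap.
H2bc12 and H2ac12, chr13:22035644-22035820, plus strand: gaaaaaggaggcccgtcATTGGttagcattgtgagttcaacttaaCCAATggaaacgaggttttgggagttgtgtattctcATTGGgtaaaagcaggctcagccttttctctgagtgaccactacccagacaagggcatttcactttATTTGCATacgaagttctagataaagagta
H2bc22, chr13:21787368-21787487, plus strand: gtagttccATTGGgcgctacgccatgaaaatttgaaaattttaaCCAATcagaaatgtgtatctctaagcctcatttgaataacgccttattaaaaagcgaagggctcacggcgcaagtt
H1f5, chr13:21780626-21780745, minus strand: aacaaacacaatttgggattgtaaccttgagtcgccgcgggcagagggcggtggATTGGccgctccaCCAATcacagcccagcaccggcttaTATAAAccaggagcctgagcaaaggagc
H2bc18, chr3:96269580-96269699, plus strand: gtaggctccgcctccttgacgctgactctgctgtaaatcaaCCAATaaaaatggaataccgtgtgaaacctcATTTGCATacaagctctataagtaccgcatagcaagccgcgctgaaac
H4c9, chr13:22041363-22041482, minus strand: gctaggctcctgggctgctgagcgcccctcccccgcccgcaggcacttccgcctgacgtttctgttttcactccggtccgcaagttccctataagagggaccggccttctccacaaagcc
H4c12, chr13:21750554-21750673, minus strand: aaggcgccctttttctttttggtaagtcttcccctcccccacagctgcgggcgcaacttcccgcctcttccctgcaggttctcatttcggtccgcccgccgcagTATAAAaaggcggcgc
The shared H2A and H2B stretch holds 3 CCAAT boxes and 1 octamer, and H2bc18 holds 1 of each in its 120 bases. H4c9 holds no exact match to the searched letters in these bases, with 1 match to TATAAA farther upstream. The letters TATAAG in the H4c9 and H2bc18 stretches were not counted as a TATA box. H4c12 holds 1 TATA box. The H4 gene whose arrays separated and the one whose arrays overlapped both lack the CCAAT box and the octamer here.

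Genes that work with histones were measured from lists of S phase, mitosis, chaperone, mRNA processing and variant genes. None of these lists had a member past the adjusted threshold in limma. Of 42 S phase genes, 39 had a higher mean in KO, and the KO arrays lay above the WT arrays for 27 and below them for 0. By the unadjusted p, 11 were higher, or 26.2%, and none lower. Most S phase genes lay at signals of 6 to 8 (18 genes) or 8 to 10 (19 genes). At those signals 19.3% and 28.2% of all genes were higher by the unadjusted p. By that measure the S phase share is near that of other genes as bright. Both KO arrays lay above both WT arrays for 37.1% and 47.9% of all genes there, and for 27 of the 42 S phase genes. Their median was 0.33. The median was 0.51 without WT replicate 1 and 0.18 without WT replicate 2. It was 0.29 without KO replicate 1 and 0.37 without KO replicate 2. Gins2 and Gins1, subunits of the replicative helicase, were at 0.81 ± 0.16 and 0.87 ± 0.21 (SE), and Ccne1, the cyclin that starts S phase, at 0.77 ± 0.18 (SE, smallest adjusted p of the list 0.090 for Gins2). The mean over the S phase list was 7.93 and 7.64 in WT and 8.15 and 8.12 in KO, so it moved with the histone genes between genotypes. Between the WT arrays it did not: WT replicate 2 read higher for 16 of 42 S phase genes and for 24 of 29 histone genes. The part of the share of cells in S phase in the histone signals was not tested.

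The 24 mitosis genes had a median of 0.22, and by the unadjusted p 6 were higher, or 25%, and 1, Mki67, was lower. Of these genes 14 lay at signals of 6 to 8 and 9 at 8 to 10, so their share too is near that of other genes as bright. The median was 0.37 without WT replicate 1 and 0.099 without WT replicate 2. It was 0.17 without KO replicate 1 and 0.26 without KO replicate 2. Ndc80, of the kinetochore, was at 0.70 ± 0.17, the kinase genes Aurka and Cdk1 at 0.63 ± 0.17 and 0.52 ± 0.16, and the proliferation marker Mki67 at -0.36 ± 0.14 (SE). In bulk samples a change in the share of cycling cells and a change in mRNA per cell cannot be told apart.

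Of the genes that make and handle histone mRNA, 16 were measured, and their median was 0.20. By the unadjusted p 1 was higher, Ncbp2, against 10.5% of all genes, and none lower, against 6.93%. Most lay at signals of 6 to 8 (7 genes) or 8 to 10 (6 genes), where 19.3% and 28.2% of all genes were higher. Without WT replicate 2 the median was 0.082. Slbp read 8.30 and 8.45 in WT and 8.56 and 8.46 in KO, a difference of 0.14 ± 0.16 (SE), with the KO arrays only just above. Npat read 7.94 and 8.17 in WT and 7.76 and 7.55 in KO, a difference of -0.40 ± 0.18 (SE, adjusted p = 0.31), so this activator of histone genes lay lower in KO while most histone genes lay higher. Casp8ap2, the processing factor FLASH, was at -0.11 ± 0.16 (SE). Ncbp2, of the cap-binding complex, was at 0.58 ± 0.18 and Coil, the coilin gene of Cajal bodies, at 0.37 ± 0.16 (SE).

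Histone variants that are made outside S phase were higher in mean for 7 of 8 measured genes, against 49.7% of all genes, with a median of 0.40. In 4 of them both KO arrays lay above both WT arrays, against 25.1% of all genes, and in 4 the arrays overlapped. Of the 8 genes, 4 lay at signals of 6 to 8, 1 at 8 to 10 and 2 at 10 or more. By the unadjusted p, 19.3% of all genes were higher at 6 to 8 and 28.2% at 8 to 10. At an unadjusted p under 0.05, 1 gene was higher, against 10.5% of all genes. That gene was Cenpa, the centromeric H3 variant, at 7.65 and 7.43 in WT and 8.07 and 8.06 in KO (0.52 ± 0.17, SE). H2aj was at 0.52 ± 0.24 and H2ax at 0.50 ± 0.24 (SE), and H1f10 belongs to this list and to the H1 members. The 22 histone chaperones, which carry histones to DNA, had a median of 0.17, with 4 higher and 2 lower by the unadjusted p. The 2 lower made up 9.09%, against 6.93% of all genes. Most chaperones lay at signals of 6 to 8 (10 genes) or 8 to 10 (8 genes). At those signals 19.3% and 28.2% of all genes were higher, against 18.2% of the chaperones. The median was 0.21 without WT replicate 1 and -0.063 without WT replicate 2. It was 0.13 without KO replicate 1 and 0.19 without KO replicate 2. Hat1, which acetylates new H4, was at 0.57 ± 0.15 (SE). Among genes of the pathways that deposit H3.3, the means did not all share a direction. Atrx was at -0.70 ± 0.20 and its partner Daxx at 0.54 ± 0.18 (SE). Ubn2 was at -0.56 ± 0.16, Ubn1 at -0.41 ± 0.30, Cabin1 at -0.18 ± 0.26 and Hira at 0.19 ± 0.25 (SE). The arrays of Ubn1, Cabin1 and Hira overlapped.

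**Figure D4:**
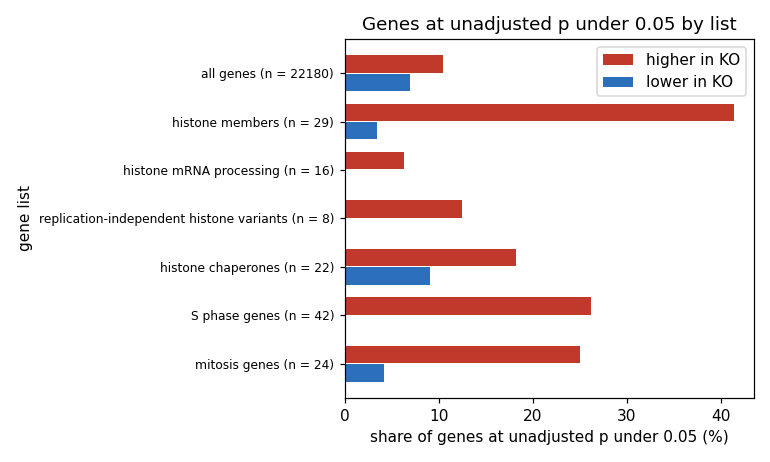
Share of genes (%) at an unadjusted p under 0.05 in limma, higher in KO (red) or lower in KO (blue), for all genes, the histone genes and 5 lists of related genes, with the number measured in brackets. The histone genes reach 41.4% for higher against 10.5% of all genes, and the S phase genes 26.2%.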

How the data were processed

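Per the labels, total RNA of sorted LSK cells was hybridised to 1 Affymetrix array per sample. What the authors deposited is log2 expression for 41345 probe sets. RMA and Affymetrix Expression Console 1.2.1 are named, per the submitters' processing notes, without settings. For filters, the genome build, scan dates and detection calls, details were not given in the sources used here, so no batch could be tested and dim probe sets could not be called absent. Sequencing depth does not apply, and 2 arrays per group limit the precision.

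The platform annotation gave 1 gene for 23521 probe sets, several for 1814, and did not list 16010. Symbols followed the newer histone names, and all 29 members matched RefSeq by gene ID. The genotypes were compared by limma 3.58.1 under R 4.3.3 over 22180 genes, with an intensity trend, two-sided tests and Benjamini-Hochberg adjustment over all genes (threshold 0.05). Differences are KO minus WT on the log2 scale, with moderated standard errors. Scripts were tested on simulated data. Related genes came from lists of 148 entries, of which 133 were measured.

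The members and lists were chosen with earlier results of these data known. Members named are, per class, the one with the highest mean, the 4 of smallest p and the largest difference in each direction. From each list, those past the threshold or the 3 of smallest p were named, with Slbp, Npat and Casp8ap2, and the T and B cell lists are given as means. The remaining members, probe sets of several genes, Mki67, Kit, Cd4, Slc4a1, Itgam, Ubn1, Cabin1, Daxx and Hira were named after their values were seen. Alternatives were the replicate block, other probe set rules, a level filter, other scalings, no trend, added several-gene probe sets and each array left out.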

Additional observations from a re-analysis of the deposited data

How the results depend on the processing

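Of the 29 members 0 passed the adjusted threshold as higher with the replicate block, where 12 were higher at an unadjusted p under 0.05, as without it. The WT and KO samples share only a number: deviations of same-numbered arrays correlated at 0.11, and with 2 pairs no pairing can be read from that. The number passing as higher was 1 with quantile normalization (0.64% of all genes), 3 with each array centred on its median (1.44%) and 2 with genes under the median level removed (2.02%), which kept 19 members and where 0 were lower at an unadjusted p under 0.05 or in separation of the arrays. With each array left out it ran from 0 to 7, and over all genes from 0 to 1730. Centring moved the median of all genes by 0.13 and gave 320 genes higher and 42 lower over all genes, against 88 and 25. The count at an unadjusted p under 0.05 ran from 4 to 13 higher and from 0 to 1 lower with an array left out, and members with both KO arrays, or the remaining one, below WT from 2 to 5. Several-gene probe sets were also added where every listed symbol fit the rule, copies of equal value included, which made 59. Sets listing any other symbol, among them some of H2B and H4, stayed out. Of the 59, 23 were higher at the unadjusted p, against 10.5% of all features. Both KO arrays lay above both WT arrays for 38, against 25.2%. The H2B median was 0.62 with centring and 0.28 with the added probe sets, and the H4 median ran from 0.27 to 0.69 with an array left out. Some genes changed sign with an array left out. H1f1, at -0.34 with all arrays, ran from -0.72 to 0.037, and H1f6, at -0.19, from -0.54 to 0.16. The rest had smaller differences with all arrays. H1f2 ran from -0.15 to 0.17, H4c12 from -0.0035 to 0.11 and H1f3 from -0.076 to 0.20. H1f7 ran from -0.097 to 0.20, H1f10 from -0.25 to 0.44 and H2ac15 from -0.076 to 0.053. H2ac15 was 0.12 with centring. The other members kept their direction in the alternatives run for single genes, except that H2bc1 was at 0 without KO replicate 1. Leaving out H1f7, H1f8 and H1f10, an alternative chosen after seeing the data, left 12 members higher and 1 lower at the unadjusted p. Why these values moved was not tested.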
